A study of Rattus norvegicus with 32 samples.

Results

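Nuclear genes of oxidative phosphorylation were taken by gene name: the subunits of complex I (names beginning Nduf with a, b, c, s or v and a number), complex II (Sdha to Sdhd), complex III (Uqcr), complex IV (Cox4 to Cox8) and complex V (Atp5). Of 28914 gene names counted in rat brain, 85 matched, and the 81 with at least 100 reads summed over 32 samples are described here. They comprised 34 subunits of complex I, 4 of complex II, 8 of complex III, 18 of complex IV and 17 of complex V, with Ndufa4 and Ndufa4l2 placed in complex IV. The names left out were Cox8c and Cox6c-ps1 with 0 reads each, Ndufa1 with 12 and Cox7b2 with 20, and the members just inside the limit were Cox7a1 with 179 and Atp5pb with 244. Atp5f1b had the most reads, 433980.

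Oxidative phosphorylation takes place in the inner mitochondrial membrane. Complexes I to IV pass electrons from NADH and succinate to oxygen, complexes I, III and IV pump protons as they do so, and complex V uses the proton gradient to make ATP. Most subunits are encoded in the nucleus and imported, while a few central ones of complexes I, III, IV and V are encoded in mitochondrial DNA, and neurons draw most of their ATP from this pathway.

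RNA sequencing was done on 4 brain regions of adult male Sprague-Dawley rats: the nucleus accumbens (NAc), the dentate gyrus (DG), the Ammon's horn of the hippocampus (CA) and the subventricular zone (SVZ). METH rats received methamphetamine hydrochloride at 10 mg/kg intraperitoneally in 4 injections, 1 every 2 h, saline (Sal) rats received saline on the same schedule, and the regions were dissected 24 h after the final dose. Each of the 8 groups had 4 samples. The rats carried no transgene, the samples were whole dissected tissue, and the labels do not tie samples to animals, so p-values measure the spread between these samples. The file headers give library numbers that recur among NAc, DG and CA samples, and SVZ METH 1 and 2 share a number, as do SVZ METH 3 and 4. Whether shared numbers mark shared animals is not stated, and the tests treat the samples as independent.

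Libraries held 11094002 to 21869773 counted reads, of which the members took 0.595 to 0.978%. In such bulk samples, fewer cells of a type and less RNA per cell cannot be told apart. The labelled regions were checked against known markers, and several libraries stood apart. In the SVZ, Sal 1, METH 2 and METH 4 had 597 to 937 reads per 1e6 counted reads after upper-quartile scaling (CPM) of Prkcd, a gene of thalamic neurons, against at most 205 elsewhere, and DG Sal 4, DG METH 3, CA Sal 2 and SVZ METH 3 had 1803 to 7405 CPM of Ttr, a choroid plexus gene, against at most 329. On regional markers, NAc METH 3 and DG Sal 3 stood apart. Ppp1r1b, a marker of striatal medium spiny neurons, had a median of 897 CPM in the 8 NAc samples but 41.7 in NAc METH 3, where Drd1, Drd2 and Adora2a were also the lowest of the NAc. In DG Sal 3, Ppp1r1b was at 542 CPM against a DG median of 81.8, and Neurod6, a hippocampal neuron gene, was at 0.0635 against 123. The granule cell markers Prox1 and C1ql2 did not separate the DG (medians 113 and 31.0 CPM) from the CA (86.3 and 33.0 CPM), and Tdo2, Fibcd1 and Spink8 were at or near 0 everywhere, with at most 0.333 CPM. The library names in the file headers fall into sets, and all SVZ libraries carry a naming and numbering of their own, so the region and the set cannot be told apart.

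RefSeq promoters of the rat assembly GRCr8 were found for 70 of the 81 members by symbol, and 12 of them hold a motif of NRF1 or of the ETS/GABP family. Promoters are shown for 4 of these 12, Uqcrh, Ndufb7, Atp5me and Ndufa11, which were chosen for their motifs after the matches were seen and are named in the comparisons. Uqcr10 and Ndufa6, members with smaller p-values for METH than Ndufa11, hold neither motif. Each sequence gives the 250 bases before the annotated start, read 5′ to 3′ on the gene's strand, and capitals mark the motif of NRF1 or ETS/GABP, factors known for binding promoters of respiratory chain genes. Uqcrh lies at chr5:134790883-134791132 on the minus strand with its motif at position -84 from the start, Ndufb7 at chr19:41477292-41477541 on the minus strand with the motif at -16, Atp5me at chr14:1464610-1464859 on the plus strand with the motif at -76, and Ndufa11 at chr9:1637364-1637613 on the plus strand with overlapping NRF1 matches.
Uqcrh: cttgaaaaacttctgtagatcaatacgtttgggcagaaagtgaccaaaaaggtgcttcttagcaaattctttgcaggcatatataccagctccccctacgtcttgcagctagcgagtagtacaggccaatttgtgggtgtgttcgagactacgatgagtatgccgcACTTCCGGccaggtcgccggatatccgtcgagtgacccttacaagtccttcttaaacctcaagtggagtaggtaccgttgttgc
Ndufb7: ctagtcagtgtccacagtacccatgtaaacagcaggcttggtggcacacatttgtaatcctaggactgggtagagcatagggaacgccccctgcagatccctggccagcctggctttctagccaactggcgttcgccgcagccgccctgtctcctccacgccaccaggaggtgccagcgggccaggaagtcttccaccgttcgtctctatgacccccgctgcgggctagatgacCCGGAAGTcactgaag
Atp5me: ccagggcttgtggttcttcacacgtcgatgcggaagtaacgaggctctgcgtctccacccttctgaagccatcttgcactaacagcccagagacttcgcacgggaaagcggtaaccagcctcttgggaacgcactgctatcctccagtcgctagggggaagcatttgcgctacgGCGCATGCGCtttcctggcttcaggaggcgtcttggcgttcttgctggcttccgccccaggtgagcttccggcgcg
Ndufa11: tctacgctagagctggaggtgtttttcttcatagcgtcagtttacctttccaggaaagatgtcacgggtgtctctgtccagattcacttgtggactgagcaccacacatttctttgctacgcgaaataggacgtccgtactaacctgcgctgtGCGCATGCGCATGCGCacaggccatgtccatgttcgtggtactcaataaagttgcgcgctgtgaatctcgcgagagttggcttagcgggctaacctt

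The letters searched, on both strands and over 250 bases before to 50 after the start, were those in capitals in the Atp5me promoter for NRF1, CCGGAAGT for ETS/GABP, TNAAGGTCA for the estrogen-related receptors (ERR), and a core motif of YY1. NRF1 letters were present in 4 of the 70 member promoters (5.71%) against 0.852% of all 33469 promoters in the table, and ETS/GABP letters in 8 (11.4%) against 3.81%. ERR letters were found in 3 (4.29%) against 1.2%, and YY1 letters in 9 (12.9%) against 0.98%. At least 1 of the 4 motifs was present in 24 member promoters. The share of all promoters is not given for this count or for the 12 with an NRF1 or ETS/GABP motif. These matches describe the letters in this window and were not tested.

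The members spanned a wide range of levels. On a scale of CPM per kilobase of counted exon (level per length), the median of the 81 members over all 32 samples was 81.1. By complex, the median level per length was 66.1 for complex I, 71.1 for complex II, 80.9 for complex III, 99.99 for complex IV and 141 for complex V. Atp5f1b, the catalytic beta subunit of ATP synthase (rn6 chr7:2504695-2511749, plus strand), had the highest level per length, 484, with samples from 371 to 741. It was followed by Cox6a1, a small subunit of cytochrome c oxidase, at 366 (249 to 581) and Cox4i1, the main isoform of its subunit IV, at 335 (270 to 467), and then by Atp5f1a, the alpha subunit of ATP synthase, at 268 (209 to 420). The sample ranges of these 4 neighbours overlap.

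Levels at or above 10 were found for 72 members, which ran from 17.0 for Ndufv3 to 484, a 28.5-fold span. Of these, 27 stood above 100. The 9 members below 10 were Ndufs6 (7.89), Ndufa12 (5.95), Cox6b2 (2.45), Cox6a2 (1.77), Cox8b (1.75), Ndufa4l2 (1.56), Cox4i2 (0.868), Atp5pb (0.235) and Cox7a1 (0.225). Ndufs6, Ndufa12 and Atp5pb encode standard subunits, so their low values stand apart from the rest of their complexes. Among the 10 members that share exon bases with another annotated gene, 8 do so with a gene on the opposite strand. Since reads were counted without strand, those in the shared bases cannot be told from reads of the partner, and the levels of these members are uncertain. The 10 members were Uqcrc2, Ndufb5, Ndufa4, Cox7b, Ndufa10l1, Cox7a2, Ndufa8, Ndufs3, Ndufb6 and Ndufa2. Exons on more than 1 chromosome are listed under the same name for Ndufv3, Uqcrb, Cox6b1 and, from the same 10, Ndufa10l1. Near-identical copies of respiratory chain genes are common in rodent genomes, so their values are uncertain where reads could be placed in a copy.

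**Figure D1:**
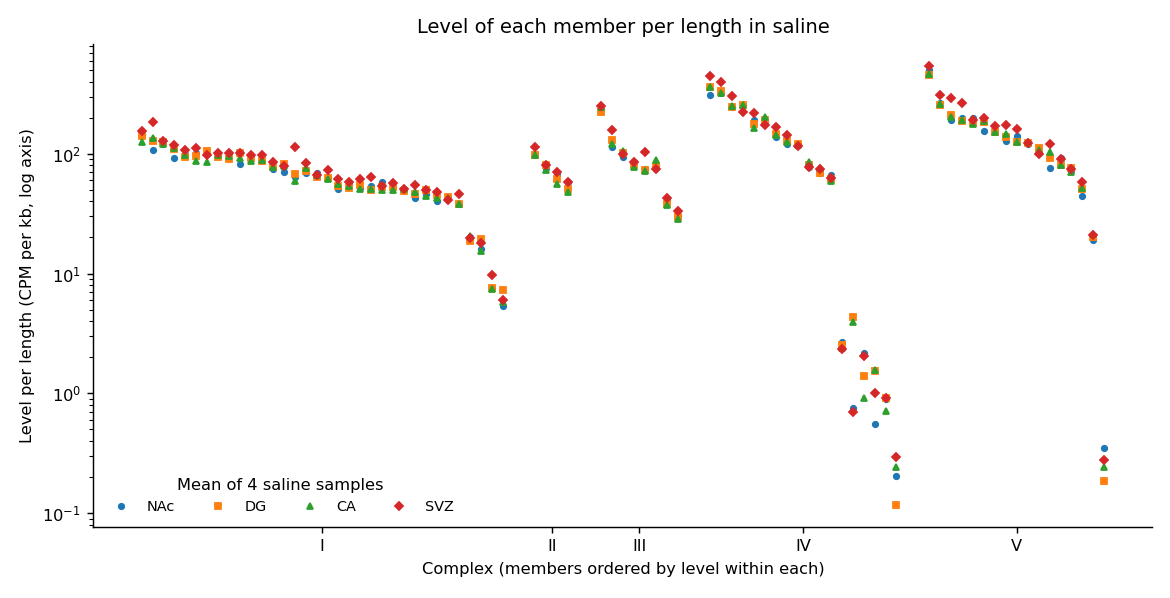
Level per length (CPM per kb, log axis) of each of the 81 members in saline, grouped by complex and ordered by level, with 1 point per region for the mean of 4 samples. Atp5f1b, the highest member, lies between 455 and 541 in the 4 regions, and the 9 members with a mean below 10 over all samples form the tails of complexes I, IV and V.

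Within a member the level varied little between samples. Over the 72 members with a level per length of at least 10, the median coefficient of variation of CPM across the 32 samples was 14.3%, the lowest was 7.58% for Atp5mc2 and the highest 39.8% for Ndufb7. Among the 81 members, the saline mean was highest in the SVZ for 48, in the DG for 12, in the NAc for 11 and in the CA for 10. It was lowest in the CA for 28, in the NAc for 27, in the DG for 17 and in the SVZ for 9.

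Several subunits exist as isoforms from different genes, and in all 4 regions a single form dominated most of these pairs. Cox4i2, the isoform known from lung, made up 0.258% of the summed Cox4i1 and Cox4i2 level per length over the 32 samples (range 0.0521 to 0.526%). Cox6a2, the form of heart and skeletal muscle, made up 0.482% of its pair and ranged from 0.0489 to 3.28%. Cox6b2, the testis form, made up 3.22% of its pair (1.77 to 7.43%), and Cox8b, another heart and muscle form, made up 0.699% (0 to 4.39%). Cox7a1, the muscle form, held 0.153% of its group of 3, against 43.5% for Cox7a2 and 56.3% for Cox7a2l, which encodes a factor of respiratory supercomplexes. The 3 genes for the membrane ring subunit c of ATP synthase were more even, with 34.7% for Atp5mc1, 26.2% for Atp5mc2 and 39.1% for Atp5mc3.

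Ndufa4l2, a hypoxia-inducible paralogue of Ndufa4, made up 1.32% of the pair over all samples. In saline its share was 1.73% ± 0.43 (SD, n = 4) in the NAc, 1.12% ± 0.57 in the DG, 0.762% ± 0.081 in the CA and 1.72% ± 0.50 in the SVZ. The 4 CA saline samples held 0.852, 0.921, 0.910 and 0.741 CPM of Ndufa4l2 and the 4 NAc saline samples 2.11, 2.67, 2.18 and 1.17 CPM, without overlap. When saline CA was set against the average of NAc, DG and SVZ, the log2 difference of Ndufa4l2 was -1.005 (SE 0.32). Its adjusted p was 0.0700 (edgeR, quasi-likelihood; Benjamini-Hochberg over all genes), which missed 0.05.

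Cox8b and Cox6a2 were close to 0 in most samples and high in a few. Cox8b stood at 4.18 CPM in DG METH 3, 3.31 in SVZ METH 3, 1.84 in CA Sal 2 and 1.23 in DG Sal 4, and at no more than 0.752 in the other 28 samples. The same 4 libraries had the highest levels of all 5 choroid plexus markers examined. Ttr, the main secreted protein of the choroid plexus, was at 5378, 7405, 1875 and 1803 CPM in these 4 libraries, and no higher than 329 in the other 28. Kl was at 133 to 427 CPM against at most 25.6, Slc4a5 at 51.4 to 148 against at most 10.0, Folr1 at 17.6 to 77.0 against at most 6.28 and Aqp1 at 22.1 to 62.4 against at most 3.93. The part of this tissue in the Cox8b values was not tested. Cox6a2 was at 6.42 CPM in CA Sal 4, 5.68 in DG Sal 2, 2.09 in CA METH 1 and 1.81 in DG Sal 4, and at no more than 1.03 in the other 28. Ckm, the muscle creatine kinase, was at most 0.31 CPM in any sample. The summed level of the striated muscle markers examined, Ckm among them, was higher, at 21.0 to 58.6 CPM. It was 33.5 CPM in CA Sal 4, 31.6 in DG Sal 2, 35.6 in CA METH 1 and 36.1 in DG Sal 4. The part of such tissue in the Cox6a2 values was not tested.

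**Figure D2:**
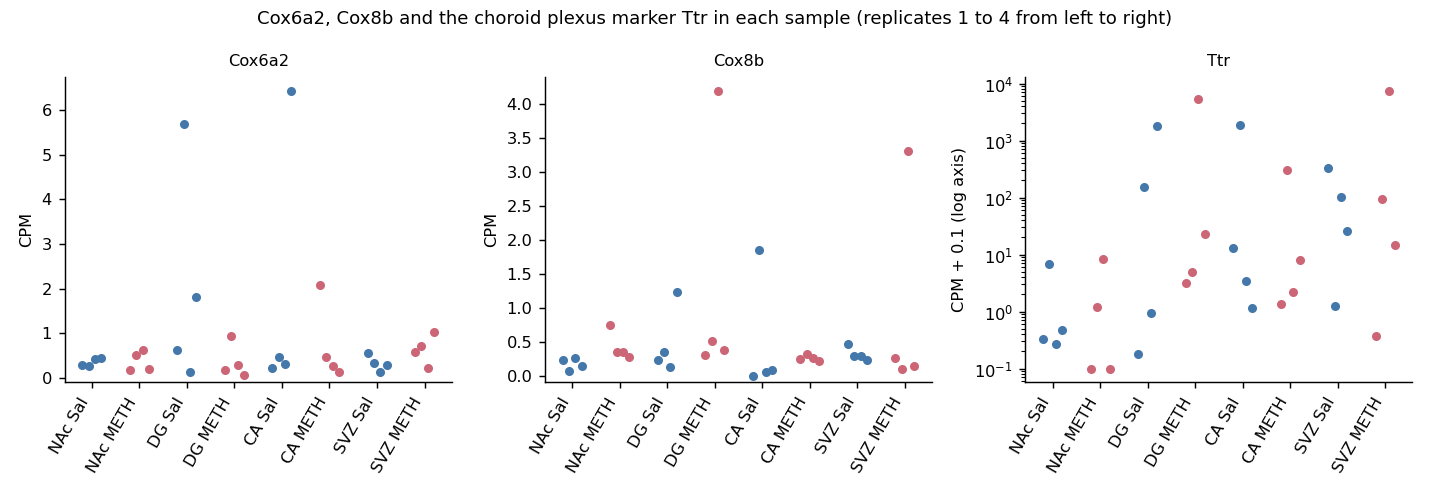
CPM of Cox6a2 and Cox8b and CPM + 0.1 of Ttr (log axis) in each of the 32 samples, with blue points for saline and red points for METH and replicates 1 to 4 from left to right in each group. The 4 highest Cox8b samples, from 1.23 to 4.18 CPM, are the 4 highest for Ttr.

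METH was compared with saline within each region to ask whether respiratory chain transcripts differed at 24 h. No member passed an adjusted p of 0.05 in any of the 4 regions (0.00676% of all genes did in the DG and 0% in the others), and their fold changes centred near 0. The median log2 fold change of tested members was 0.02 in the NAc, -0.02 in the DG, 0.01 in the CA and 0.05 in the SVZ, against 0.03, -0.01, 0.01 and 0.02 over all genes tested. The study's rule for differential expression, an adjusted p under 0.01 with a fold change above 2, was met by 0 members in each region, and by 0% of all genes tested in each of these fits. These fits leave out the RUVr factors of unwanted variation that the study's methods include. With 1 or 2 RUVr factors fitted here within each region, the rule was again met by 0 members and 0% of all genes. The study's methods describe such factors for the dataset as a whole, and it reports genes that meet its rule in every region. The fits here therefore do not repeat its procedure. At an unadjusted p under 0.05, edgeR called 1 member in the NAc (against 3.39% of all genes), 2 in the DG (12.8%), 0 in the CA (7.16%) and 0 in the SVZ (2.58%). DESeq2 called 2, 2, 1 and 0. The shares of all genes called by DESeq2 are not given, so its counts have no background to be set against.

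The intervals were narrow in the NAc, DG and CA. Those of the DG take the labels as given, although replicates 1 and 2 of both DG groups carry library numbers of the opposite treatment in the NAc and CA. The 95% interval of the fold change lay within 1.5-fold in either direction for 73 of 77 members in the NAc, 69 of 77 in the DG, 74 of 77 in the CA and 54 of 80 in the SVZ. The median half-width of that interval corresponded to a 1.18-fold change in the NAc, 1.19-fold in the DG, 1.16-fold in the CA and 1.36-fold for SVZ tissue. Members had a median SE on the log2 scale of 0.10, 0.11, 0.09 and 0.19 in these regions, against 0.17, 0.19, 0.14 and 0.22 over all genes tested.

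**Figure D3:**
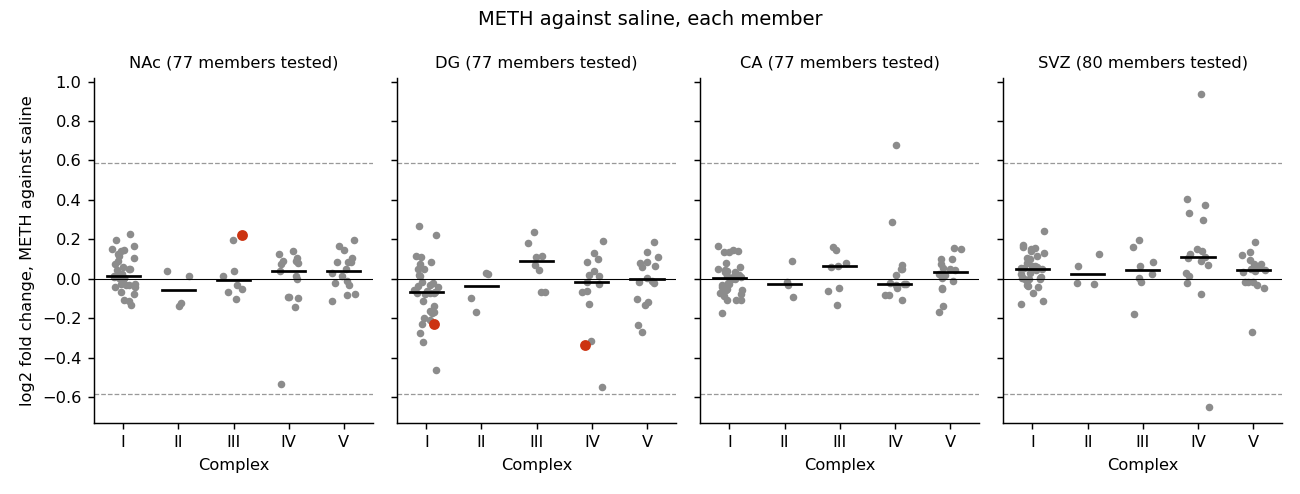
Log2 fold change of METH against saline for each tested member (points) by complex in the 4 regions, with the median per complex as a black bar, dashed lines at 1.5-fold, and red for an unadjusted p under 0.05. The 1 red point of the NAc is Uqcrh and the 2 of the DG are Ndufa6 and Cox6a1, all with adjusted p above 0.05.

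A list of 20 mainly core and catalytic subunits differed little between METH and saline. It includes Ndufs1, Ndufv1 and other carriers of the flavin and iron-sulfur centres of complex I, the 4 complex II subunits, Uqcrc1, Uqcrc2 and the Rieske protein Uqcrfs1 of complex III, Cox4i1, Cox5a and Cox5b, and the alpha, beta and gamma subunits of ATP synthase. The central subunits of complex IV encoded in mitochondrial DNA are not in this list. None of the 20 had an unadjusted p under 0.05 in any region. Their log2 fold changes ran from -0.14 for Sdhd to 0.04 for Cox5a in the NAc, from -0.17 for Sdhb to 0.11 for Uqcrc2 in the DG, from -0.14 for Atp5f1c to 0.09 for Sdhc in the CA, and from -0.13 for Ndufs3 to 0.15 for Cox5b in the SVZ. The 95% interval lay within 1.5-fold for all 20 in the NAc, DG and CA and for 17 in the SVZ. Atp5f1b had 879.7 ± 89.8 CPM (SD, n = 4) in NAc saline and 823 ± 50.7 in NAc METH, 806 ± 52.4 and 808 ± 67.1 in the DG, 824 ± 30.2 and 838 ± 59.4 in the CA, and 959 ± 256 and 925 ± 179 in the SVZ. In each region the METH and saline means of Atp5f1b differed by less than the larger SD.

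In the NAc, Uqcrh, the hinge protein of complex III that sits near cytochrome c1 and whose promoter is printed above (rn6 chr5:134919044-134927235, minus strand), was called at the unadjusted p. Its CPM was 62.9, 64.2, 61.2 and 63.0 in saline and 75.9, 74.9, 67.0 and 72.6 in METH. All 4 METH samples were above all 4 saline samples. The log2 fold change was 0.22 (SE 0.07, 95% interval 0.06 to 0.38), with an adjusted p of 0.999, and without NAc METH 3, the library low in striatal markers, it was 0.26. The 1 called member of 77 is 1.3%, against 3.39% of all genes tested. Uqcrh was not called with a length offset or in 1 fit of all 32 samples. Next by p among members higher in METH were Ndufb7, an accessory subunit of complex I, with a log2 fold change of 0.20 (SE 0.09), and Uqcr10, a small subunit of complex III, with 0.20 (SE 0.09). The lower members with the smallest p were Cox6b2 at -0.54, Uqcrc2 and Ndufa5. Uqcrc2 was at 156, 148, 145 and 144 CPM in saline and 133, 138, 142 and 133 in METH, every METH sample below every saline sample, but did not pass the test. These were the 2 members without overlap in the NAc. There were 2 in the DG (Ndufa6 and Ndufc2), 1 in the CA (Sdhc) and 0 in the SVZ. The share of all genes without overlap is not given. Higher values in METH were found for 47 of 77 members (61.0%), and for 57.8% of all genes tested.

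In the DG, 2 members were called at the unadjusted p, which is 2.6% of 77 against 12.8% of all genes tested. With a replicate block, or without DG METH 4, 0 were called. Ndufa6, an accessory subunit of complex I (rn6 chr7:123583062-123586919, minus strand), was at 46.7, 51.1, 52.0 and 46.3 CPM in saline and 39.4, 44.1, 42.7 and 41.1 in METH. The groups did not overlap, and the log2 fold change was -0.23 (SE 0.09, 95% interval -0.42 to -0.03, adjusted p = 0.324). Cox6a1 (rn6 chr12:47024442-47027495, plus strand) was at 218, 230, 158 and 182 CPM in saline and 166, 145, 164 and 148 in METH. Its groups overlap, with a log2 fold change of -0.34 (SE 0.13, 95% interval -0.63 to -0.04, adjusted p = 0.332). Atp5pf, coupling factor 6 of ATP synthase, was next among the lower members at -0.27 (SE 0.13), and the higher members with the smallest p were Ndufa5 at 0.27, Ndufa10l1 at 0.22 and Cox7a2l at 0.19. By complex, the median in the DG was -0.07 for complex I, where 24 of 34 subunits were lower in METH (52.0% of all genes were lower), and 0.09 for complex III. Without DG Sal 3, the library with striatal markers, 9 of 78 members were called at the unadjusted p (11.5%, against 13.9% of all genes), among them Cox6a1 at -0.43 but not Ndufa6 at -0.20. Replicates 1 and 2 of either DG group carry library numbers that belong to the opposite treatment among the NAc and CA libraries. Whether the labels of these libraries were exchanged was not tested, which also bears on the 4-region average, the interaction and the DG within a treatment. Without these 4 libraries, Ndufa6 was at -0.24 and Cox6a1 at -0.13, neither of them called, the median over members was 0.10 (all genes -0.03), and 11 of the 34 complex I subunits were lower with a complex I median of 0.08.

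In the CA, 0 of 77 members were called, against 7.16% of all genes tested. Ndufa4l2 came closest, with 0.852, 0.921, 0.910 and 0.741 CPM in saline and 0.752, 1.58, 1.88 and 1.28 in METH. Its log2 fold change was 0.68 (SE 0.30, 95% interval -0.0044 to 1.36), on 1 METH sample within the saline range and 3 above it. These values rest on 9 to 15 reads per sample in saline and 9 to 29 in METH. Atp5f1d, the delta subunit of ATP synthase, and Uqcrq, a ubiquinone-binding subunit of complex III, followed with 0.16 each, and on the lower side Uqcrc2 with -0.13, Ndufb4 and Atp5f1c. In the SVZ, 0 of 80 members were called, against 2.58% of all genes tested, and 58 of the 80 were higher in METH (72.5%), against 52.9% of all genes. Leaving out 1 library moved the SVZ median between -0.02 (without SVZ METH 4) and 0.17 (without SVZ METH 1). The libraries with Prkcd above 500 CPM are Sal 1 in saline and METH 2 and METH 4 in METH. No share of higher members without them is given. With the SVZ METH libraries of the same number summed, leaving 2 METH samples, the count was also 0 and the median 0.03. The members with the smallest p there were Cox6a2 at 0.94 (SE 0.54), Ndufa11 at 0.14 and Cox7b at 0.30 on the higher side, and Ndufa4l2 at -0.65 (SE 0.38), Uqcr11 and Ndufs3 on the lower.

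Averaged over the 4 regions, 1 of 80 members was called at the unadjusted p (1.25%, against 7.83% of all genes tested). This was Uqcr10 (rn6 chr14:84935486-84937725, minus strand), with a log2 fold change of 0.17 (SE 0.08, 95% interval 0.02 to 0.33, adjusted p = 0.590). Its CPM in the NAc was 40.8, 41.4, 34.6 and 37.8 in saline and 44.4, 48.8, 41.0 and 41.3 in METH. In the DG it was 48.6, 45.2, 39.3 and 34.7 against 48.2, 39.2, 53.5 and 49.1, and in the CA 44.4, 42.3, 43.0 and 42.6 against 42.2, 51.6, 43.7 and 53.2. In the SVZ it was 53.8, 35.6, 40.9 and 31.8 in saline and 30.7, 47.9, 51.8 and 54.4 in METH, and the groups overlap in every region. The 95% interval over the 4 regions lay within 1.5-fold for 77 of 80 members, with a median half-width of 1.103-fold. A test of whether the METH effect differed between regions called 0 of 80 members at the unadjusted p (against 7.74% of all genes tested, with 0.0062% at an adjusted p under 0.05).

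The 13 subunits encoded in mitochondrial DNA, which share complexes I, III, IV and V with the members, differed more between libraries. Their summed level in the DG was 61786, 74676, 37356 and 57014 CPM in saline and 42197, 43682, 36994 and 31914 in METH. Each of the 13 was lower in METH (median -0.82 on the log2 scale), and at an unadjusted p under 0.05 there were 11, against 6.42% of all genes lower at that limit. None passed an adjusted p of 0.05, the values running from 0.219 to 0.879. Without replicates 1 and 2 of both DG groups, whose library numbers belong to the opposite treatment in the other regions, 12 of the 13 were lower with a median of -0.70, and 0 were called (against 2.82% of all genes lower at the unadjusted p). In the NAc all 13 were higher in METH with a median of 0.33, in the CA 12 were lower with a median of -0.20, and in the SVZ all 13 were higher with a median of 0.10, with 0 called in each. The mitochondrial level lay in a narrow range in 1 library set, whose 7 libraries, from several regions, were between 31914 and 41317 CPM. Apart from CA Sal 3, these were METH libraries. Sets of 10, 5 and 8 libraries overlapped that range, at 36793 to 86694, 37356 to 69686 and 27776 to 66722 CPM. A set of 2 lay at 64803 and 70339 CPM. The only set with DG libraries of both treatments held DG Sal 3, the library with striatal markers, at 37356 and DG METH 1 and 2 at 42197 and 43682. The part of the set in the DG difference was not tested.

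With the labels as given, the summed level of the 81 nuclear members was nearly the same in both DG groups. It was 6850, 7320, 6489 and 6286 CPM in saline and 6792, 5961, 6839 and 6936 in METH. The group means were 6737 ± 454 (SD, n = 4) and 6632 ± 451. Replicates 1 and 2 of both DG groups carry library numbers of the opposite treatment in the NAc and CA. Grouped by library number, the DG sums were 6792, 5961, 6489 and 6286 CPM for saline numbers. They were 6850, 7320, 6839 and 6936 CPM for METH numbers, without overlap. This grouping was made after the values were seen, and the difference was not tested. In the NAc the sums were 6756 ± 498 in saline and 6663 ± 223 in METH, in the CA 6757 ± 108 and 6763 ± 545, and in the SVZ 7635 ± 1543 and 7772 ± 1405. In every region the means of the groups as labelled differed by less than 1 SD.

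Other genes of the pathway were examined by list. Of 44 tested assembly factors, which build the complexes without staying in them, 0 were called at the unadjusted p in the NAc and CA. In the DG 3 were lower, Ndufaf5 (-0.27), Ndufaf8 (-0.34) and the copper chaperone Cox17 (-0.84), which is 6.82% against 6.42% of all genes. In the SVZ Cmc1 was higher (1.55) and Coa7 lower (-0.34), 4.55% of the list against 2.58% of all genes called. Of 13 regulators of mitochondrial genes, the coactivators Ppargc1a (-0.44, SE 0.13, adjusted p = 0.254) and Ppargc1b (-0.46, SE 0.13, adjusted p = 0.222) were lower in the DG, and Ppargc1b was lower in the SVZ (-0.35). Without replicates 1 and 2 of both DG groups, Ppargc1a was at -0.37 (SE 0.19, adjusted p = 0.739), not called at the unadjusted p, and Ppargc1b at -0.49 (SE 0.17, adjusted p = 0.732). Pprc1, a related coactivator, was higher in the NAc (0.17) and CA (0.21), where Esrra was higher (0.20) and the methyltransferase Tfb1m lower (-0.24). These are 1 of 13 in the NAc, 2 in the DG, 3 in the CA and 1 in the SVZ, where 3.39, 12.8, 7.16 and 2.58% of all genes were called. None of these regulators or assembly factors passed an adjusted p of 0.05. Ndufab1, Cyc1 and Cycs, components or partners of the chain outside the name rule, and 11 citric acid cycle genes had 0 calls in every region. Of 71 mitochondrial ribosomal proteins, 1 was higher in the NAc (1.41%, against 3.39% of all genes called), 4 were lower in the DG (5.63%, against 6.42% of all genes lower), and 2 were higher and 2 lower in the CA (5.63% in all, against 7.16% of all genes called).

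The regions were then compared within each treatment. The SVZ had the highest levels for most members, but the difference varied widely between SVZ libraries. Each region was set against the mean of the other 3. In saline, 67 of 78 tested members were higher in the SVZ, against 57.0% of all genes, with a median log2 difference of 0.16 against 0.05 for all genes. At an unadjusted p under 0.05, 21 were higher (26.9%, against 16% of all genes) and 1, Cox8a, was lower (-0.18), against 9.45% of all genes. Leaving out 1 library moved the 21 between 8 (without SVZ Sal 1) and 37 (without SVZ Sal 4). At an adjusted p under 0.05, 3 were higher (3.85%, against 3.27% of all genes): Atp5me, subunit e of ATP synthase that links its dimers, at 0.54 (SE 0.10, adjusted p = 0.0192), Ndufb7 at 0.84 (SE 0.18, adjusted p = 0.0272) and Atp5f1e, the epsilon subunit, at 0.45 (SE 0.11, adjusted p = 0.0363). The joint test for any difference among the 4 regions called 1 member, Atp5me, at an adjusted p of 0.0337, against 5.79% of all genes. With a replicate block, without a filter on low counts or with a length offset, it called 0, as it did without NAc Sal 2, NAc Sal 3, SVZ Sal 3 or any 1 of the 4 CA Sal samples, and it called 4 without DG Sal 3 and 3 without SVZ Sal 4.

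In METH, 68 of 78 members were higher in the SVZ, against 55.9% of all genes, with a median log2 difference of 0.20 against 0.05. At the unadjusted p 32 were higher (41.0%, against 23.5% of all genes) and 0 lower (against 16.4%). Leaving out 1 library moved the 32 between 15 (without SVZ METH 4) and 53 (without SVZ METH 1). At an adjusted p under 0.05, 21 were higher (26.9%, against 15.9%). The largest differences with such an adjusted p were for Ndufb7 at 0.84 (SE 0.16, adjusted p = 0.0028) and Ndufb9 at 0.71 (SE 0.14, adjusted p = 0.0037), both accessory subunits of the membrane arm of complex I. Atp5pd, a stalk subunit of ATP synthase, was at 0.60, Atp5me at 0.57, Cox6a1 at 0.56 and Uqcrfs1 at 0.52. The joint test called 8 members at an adjusted p under 0.05, against 28.7% of all genes: Ndufb7, Ndufb9, Atp5pd, Cox6a1, Atp5if1, Atp5me, Uqcrfs1 and Ndufb11. That count was 34 without SVZ METH 1, 2 without SVZ METH 4, 4 without SVZ METH 3, 5 without SVZ METH 2 or DG METH 2, and 4 with a length offset. Shares of all genes are not given for these fits or for those in saline above, so the counts have no background to be set against. Of the 77 members tested under both treatments, 18 were higher in the SVZ at the unadjusted p in each (23.4%, against 11.3% of all genes tested under both).

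By complex, over the 78 members tested in each treatment, the median log2 difference of the SVZ was 0.14, 0.18, 0.11, 0.13 and 0.20 for complexes I to V in saline, and 0.18, 0.24, 0.13, 0.26 and 0.22 in METH. Members have short transcripts, with a median counted length of 711 bases against 2196 for all genes with at least 100 reads. Genes of at most 711 bases had a median SVZ difference of 0.14 in saline and 0.15 in METH. Mitochondrial ribosomal proteins stood at 0.18 and cytosolic ribosomal proteins at 0.15 in saline, mitochondrially encoded genes at -0.18 and glycolysis genes at -0.09. With a trend on gene length removed in each sample, 7 members were higher in saline (against 13.4% of all genes) and 20 in METH (against 21.5%) at the unadjusted p.

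The SVZ libraries spread more than those of the other regions, in which the summed member level lay between 5961 and 7320 CPM. In the SVZ it was 9731, 6957, 7727 and 6126 CPM in saline and 5695, 8206, 8398 and 8788 in METH. Sal 1, Sal 3, METH 2, METH 3 and METH 4 were above, and METH 1 below, all libraries of the other regions. Markers of thalamic neurons also differed between SVZ libraries, and their summed level was 1717, 90.0, 151 and 253 CPM in SVZ saline and 153, 1532, 488 and 1051 in SVZ METH, and 42.5 to 233.6 in the other regions. Of the 5 markers, Prkcd, Tcf7l2, Slc17a6 and Rora were highest in SVZ Sal 1, METH 2 and METH 4, whereas Tnnt1 was at only 1.34 to 2.45 CPM there and reached 23.9 elsewhere. Prkcd was at 937, 805 and 597 CPM in those 3 libraries, 205 in SVZ METH 3, at most 122 in the other SVZ samples and at most 77.5 in the other regions. The summed level of 5 oligodendrocyte markers, among them Mbp and Mog, was highest in the same 3 libraries, with 12972, 2577, 5912 and 5016 CPM in SVZ saline and 6434, 18020, 5806 and 18745 in SVZ METH, against 1608 to 9814 in the other regions. SVZ METH 3 had 8070 CPM of the 5 choroid plexus markers, against 5.22 to 373 in the other SVZ samples. The part of thalamic, oligodendrocyte or choroid plexus RNA in the member levels was not tested.

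**Figure D4:**
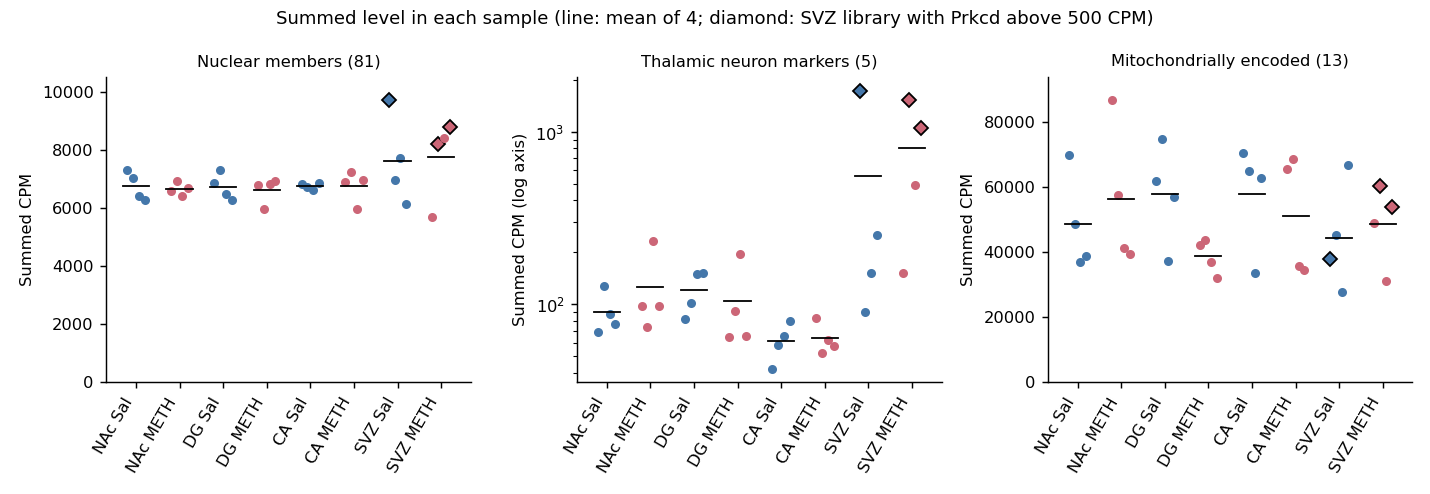
Summed CPM of the 81 members, of 5 thalamic neuron markers (log axis) and of the 13 mitochondrially encoded genes in each sample, with a line at the mean of 4, blue for saline and red for METH, and diamonds for SVZ libraries with Prkcd above 500 CPM. The 3 diamonds have member sums of 9731, 8206 and 8788 CPM, all above the 7320 CPM that is the highest outside the SVZ.

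With these 3 libraries left out, a choice made after their values were seen, most of the SVZ difference was smaller. In saline, 43 of 79 members were then higher in the SVZ, the median was 0.02 (all genes 0.03), and 8 were higher and 4 lower at the unadjusted p, with 10.1% higher against 16.1% of all genes. In METH, 49 of 79 were higher, the median was 0.08 (all genes 0.05), and 10 were higher and 2 lower, with 12.7% higher against 16.2%. Shares of all genes called lower are not given for these fits, so the lower counts have no background to be set against. Ndufb7 and Atp5me remained called at an adjusted p under 0.05 in saline, at 0.52 and 0.43, and Ndufb7 in METH, at 0.78. For the SVZ, the METH values of this fit rest on METH 1 and METH 3 alone. METH 3 is the SVZ library rich in choroid plexus markers. Called in METH only after these libraries were left out were Cox6b2, at 0.90, and Uqcrc2, lower in the SVZ, at -0.36. Ndufb9 (0.54, adjusted p = 0.0805), Uqcrfs1 (0.35, adjusted p = 0.162) and Cox6a1 (0.28, adjusted p = 0.278), called in METH with all libraries, were then not called.

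Ndufb7 (rn6 chr19:24701049-24705405, plus strand) was at 101, 50.3, 67.2 and 34.0 CPM in SVZ saline and 35.8, 63.6, 89.3 and 69.8 in SVZ METH, and between 27.7 and 44.2 in the 24 samples of the other regions. SVZ Sal 4 and METH 1 lie inside that range and the other 6 SVZ samples above it. Of the SVZ METH libraries without Prkcd above 500 CPM, METH 1 was at 35.8 CPM and METH 3 at 89.3. Atp5me (rn6 chr14:2325308-2326436, plus strand) was at 104, 73.5, 97.7 and 64.3 CPM in SVZ saline and 60.6, 80.0, 117 and 91.6 in SVZ METH, against 46.1 to 71.2 elsewhere, with Sal 4 and METH 1 again inside. Ndufb9 was at 200.2, 105, 129 and 79.2 CPM in SVZ saline and 77.8, 138, 159 and 157 in SVZ METH. For all 3 genes Sal 4 and METH 1 were the lowest SVZ samples of their groups.

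**Figure D5:**
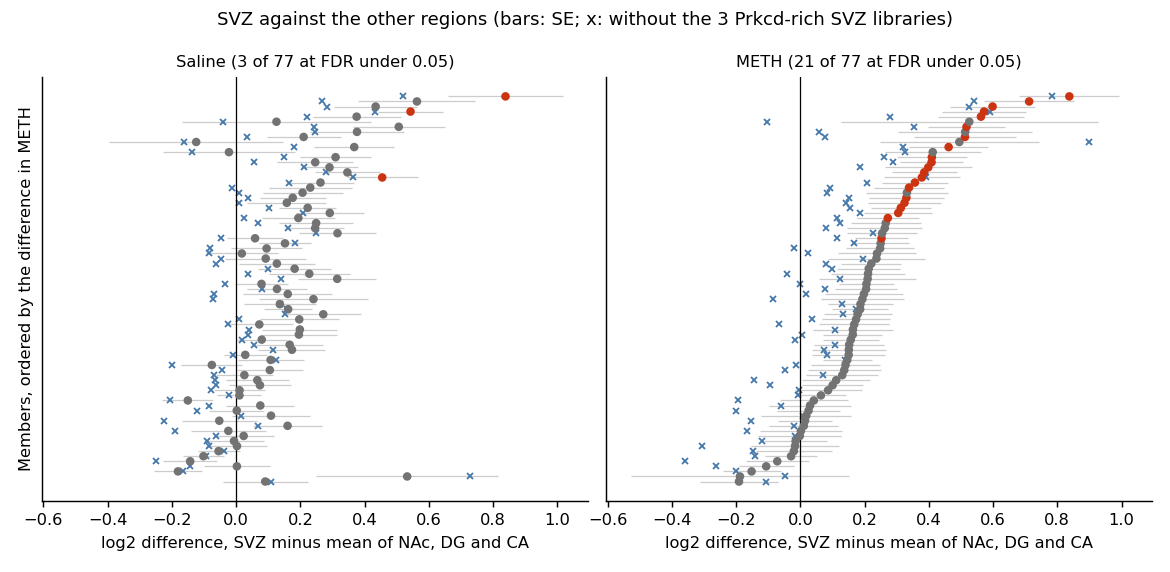
Log2 difference of the SVZ from the mean of NAc, DG and CA for the 77 members tested under both treatments, ordered by the value in METH, with bars for the SE, red for an adjusted p under 0.05, and crosses for the value without the 3 SVZ libraries with Prkcd above 500 CPM. With all libraries 3 members are red in saline and 21 in METH, and most crosses lie to the left of their points.

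The NAc, DG and CA were also each set against the mean of the other 3 regions, a mean that includes the SVZ. In saline, the NAc had 3 members higher (against 8.13% of all genes) and 9 lower (11.5%, against 6.92%) at the unadjusted p, the DG 1 higher and 0 lower (against 4.72 and 2.06%), and the CA 0 higher and 6 lower (against 11.1 and 14.6%). In METH, the NAc had 1 higher and 2 lower, the DG 0 higher and 6 lower, and the CA 0 higher and 4 lower, against 13.8 and 9.2% of all genes in the NAc, 11.8 and 12.9% in the DG, and 10.9 and 13.5% in the CA. The only one of these with an adjusted p under 0.05 in METH was Atp5if1, the inhibitor of ATP synthase hydrolysis, in the DG (-0.36, adjusted p = 0.0457), where 3.84% of all genes were lower at that limit. That contrast uses DG METH 1 and 2, whose library numbers are those of saline in the NAc and CA, and no value without them is given.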

How the data were processed

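The authors trimmed paired reads with cutadapt 2.7, checked them with FastQC 0.11.4, aligned them to rn6 with STAR 2.5.2b and deposited 1 table of raw counts per gene and library, made per the file headers with featureCounts 1.6.3 (no strand, minimum mapping quality 10, gene annotation release 95). Ribosomal RNA had been depleted. Counts of the 32 samples were tested with edgeR 4.0.16 (quasi-likelihood, upper-quartile normalization, its filter on low counts, Benjamini-Hochberg adjustment over all genes) in R 4.3.3 with limma 3.58.1: METH against saline in each region (8 samples), both over all 32, the interaction, and regions within a treatment (16 samples). Filtering left 77 members tested in the NAc, DG and CA and 80 in the SVZ. Each SE was taken from the fold change and its F statistic. Tables and plots used Python 3.11.15, pandas 2.3.3, numpy 2.4.6 and matplotlib 3.10.9.

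The members and lists were chosen with earlier results of these data known. Named were the 20 listed subunits, mainly core ones, the isoform groups, and the 3 members with the smallest p in each direction per comparison. Also named were those passing an adjusted p in a METH comparison and the extremes of the counts. Others were named after their values were seen. Alternatives were DESeq2 1.42.0, TMM, other filters, a length offset, RNA integrity, RUVr factors, a replicate block, the library set named in the file headers and leaving out libraries. The fits were tested on simulated counts. Surf1, Sco2, Coa1, Pet117, Idh3b, Ogdh, Foxj1 and Pecam1 were not analysed here, and 1 member is counted in the totals but its own values are not reported here.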

Additional observations from a re-analysis of the deposited data

Results flagged for a closer look

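In groups of 4, the highest or lowest sample was compared with the rest by its gap over the range (Dixon's test at 95%), and chance alone marks about 1 in 20 groups. Of 136 group values, 10 had a sample far from the other 3. For summed levels, DG METH 2 had a member sum of 5961 CPM against 6792 to 6936 in the other 3, and for complex II NAc METH 3 had 449 CPM against 413 to 419 and SVZ METH 1 had 383 against 520 to 546. SVZ METH 1 also stood apart for Atp5f1b, with 659 CPM against 981 to 1032. Cox6a2 was high in CA Sal 4, at 6.42 CPM against 0.227 to 0.461, and in CA METH 1, at 2.09 against 0.142 to 0.473. Cox8b was high in NAc METH 1, at 0.752 CPM against 0.267 to 0.348, in DG METH 3, at 4.18 against 0.307 to 0.506, in CA Sal 2, at 1.84 against 0 to 0.082, and in SVZ METH 3, at 3.31 against 0.103 to 0.266.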

How the results depend on the processing

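The counts of members at an unadjusted p under 0.05 for METH moved as follows, with the edgeR value in brackets. Shares of all genes at that p are not given for these settings, so the counts alone are not results about the members. In the NAc (1) they were 2 with DESeq2, 2 with RNA integrity as a covariate, 2 and 6 with 1 and 2 RUVr factors, 0 with a length offset and 0 in 1 fit of 32 samples. With the library set named in the file headers as a covariate, which compares NAc Sal 3 and 4 with METH 1 and 2 only, the NAc count was 9 and the median 0.14. In the DG (2) they were 1 with RNA integrity, 5 with 2 RUVr factors, 1 with a length offset and 4 in 1 fit of 32. With the library set as a covariate, only DG Sal 3 is compared with DG METH 1 and 2, so no count is given. The DG median was 0.10 without replicates 1 and 2 of both groups, whose library numbers are those of the other treatment in the NAc and CA. In the CA (0) they were 1 with DESeq2 and 1 with 1 RUVr factor, and in the SVZ (0) 9 with 2 RUVr factors. With 2 RUVr factors, 0 members passed an adjusted p of 0.05 in each region. Of all genes, 0.169% did in the NAc, 2.53% in the DG, 0.0821% in the CA and 0.00642% in the SVZ. Over the 4 regions (1) they were 3 without the SVZ and 2 without the 3 Prkcd-rich SVZ libraries, and for the interaction (0) 1 without the SVZ. Members differing among regions at an adjusted p under 0.05 were 1 in saline, against 3 with DESeq2, 0 without a filter and 0 with a length offset, and 8 in METH, against 4 with a length offset and 1 without the Prkcd-rich libraries. Members higher in the SVZ at the unadjusted p were 21 in saline, against 7 and 8 under these settings, and 32 in METH, against 20 and 10. Without the Prkcd-rich libraries the SVZ difference turned from above to below 0 for 23 of 77 members in saline and 19 of 77 in METH, among them Sdhb, called with all libraries, at -0.00060. The library set, the DG library number, the Prkcd and the SVZ-higher settings were chosen after seeing the data, and the cause of these changes was not tested.

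Within a region, equally numbered samples of the 2 treatments had mixed correlations (-0.78 to 0.39), so the numbers were not taken to pair them, and pairing across regions was not tested. With the replicate block the DG count was 0 and the count among regions in saline 0.

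Leaving out 1 library at a time gave 1 to 3 calls in the NAc (median -0.03 to 0.06), 0 to 9 in the DG (9 without DG Sal 3; median -0.05 to 0.03), 0 to 2 in the CA (-0.03 to 0.05), 0 to 2 in the SVZ (-0.02 to 0.17), 0 to 3 over the 4 regions (-0.01 to 0.04) and 0 to 2 for the interaction. Among regions it gave 0 to 4 in saline and 2 to 34 in METH (2 without SVZ METH 4, 34 without METH 1), and for members higher in the SVZ 8 (without Sal 1) to 37 (without Sal 4) in saline and 15 (without METH 4) to 53 (without METH 1) in METH. Apart from METH against saline in the DG without DG Sal 3, shares of all genes are not given for these fits. At these depths 1 read was 0.0460 to 0.0940 CPM, so Cox7a1, Atp5pb, Cox8b, Cox6a2, Cox4i2, Cox6b2 and Ndufa4l2 rest on few reads.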
